A study of Mus musculus with 9 samples.

Results

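The immediate early and stress response genes Fos, Fosb, Jun, Junb, Egr1, Atf3, Ier2, Btg2, Gadd45a and Rasd1 were followed in the mouse oviduct. Their probe sets were taken by symbol, as those annotated with one of these names, from a list of genes drawn up with earlier results of these data known. All 10 genes had 1 probe set with that symbol alone, among 19937 genes so covered. RNA of whole oviduct was measured on 9 Affymetrix gene arrays in 3 groups of 3. The immature group held CD1 females of day 21, before sexual maturity, and served as the control of the series. The estrus group held sexually mature CD1 females in estrus, the phase around ovulation, and the diestrus group held such females in diestrus, the phase of high progesterone between ovulations. The labels give an age in days for the immature females only. No animal of any group was given hormones, and each array carried pooled oviduct tissue of 5 animals. What a p-value weighs here is thus the variation among pools, not that among single animals.

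Immediate early genes are transcribed within minutes of a growth factor, calcium or stress signal, from promoters that already carry their transcription factors, and their messages are short-lived. Fos and Fosb proteins pair with Jun and Junb to form the transcription factor AP-1, and Egr1 and Atf3 are further factors induced in the first wave. Btg2 and Gadd45a restrain the cell cycle after DNA damage and other stresses, and Rasd1 is a Ras-like GTPase first known for its induction by dexamethasone, a glucocorticoid.

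Promoter sequences of 7 of the 10 genes were taken from RefSeq on build GRCm38.p6, each running from 250 bases before the transcription start to 50 bases after it. Those of Fos, Btg2 and Gadd45a are shown, because Fos is the type gene of the early response and Btg2 and Gadd45a changed in opposite directions in diestrus. The Fos window lies at chr12:85473640-85473939 on the plus strand, the Btg2 window at chr1:134079106-134079405 on the minus strand and the Gadd45a window at chr6:67037358-67037657 on the minus strand. Each is printed 5′ to 3′ on the strand of its gene, with matches to the searched motifs in capitals.
Fos: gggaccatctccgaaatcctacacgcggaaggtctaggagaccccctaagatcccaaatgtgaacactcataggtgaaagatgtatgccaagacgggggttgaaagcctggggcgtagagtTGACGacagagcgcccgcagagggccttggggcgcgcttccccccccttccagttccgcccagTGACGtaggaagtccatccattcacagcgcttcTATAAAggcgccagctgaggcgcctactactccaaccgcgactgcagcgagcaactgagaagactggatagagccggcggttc
Btg2: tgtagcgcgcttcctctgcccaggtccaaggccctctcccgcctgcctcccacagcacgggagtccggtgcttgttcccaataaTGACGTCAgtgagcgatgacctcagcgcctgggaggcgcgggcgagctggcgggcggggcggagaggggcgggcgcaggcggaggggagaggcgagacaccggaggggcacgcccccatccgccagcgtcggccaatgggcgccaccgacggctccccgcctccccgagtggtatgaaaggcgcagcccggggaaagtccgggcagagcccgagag
Gadd45a: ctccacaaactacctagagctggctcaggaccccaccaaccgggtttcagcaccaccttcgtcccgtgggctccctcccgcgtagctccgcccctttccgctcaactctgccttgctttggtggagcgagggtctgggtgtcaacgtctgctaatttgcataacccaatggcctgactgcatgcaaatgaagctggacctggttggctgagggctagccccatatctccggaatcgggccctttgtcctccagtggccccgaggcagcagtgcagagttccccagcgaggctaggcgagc

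The motifs searched were the cAMP response element (CRE) TGACGTCA, its partial site TGACG or CGTCA, the AP-1 site TGAGTCA or TGACTCA, the EGR site GCGTGGGCG or CGCCCACGC, the TATA box TATAAA on the strand of the gene only, and the CArG box that binds serum response factor. All others were read on both strands, and each full CRE contains the partial site. With the first transcribed base counted as 1, the Fos window held TATAAA at -33 to -28 and TGACG at -129 to -125 and at -66 to -62. Btg2 held a full CRE at -166 to -159. Fosb, Junb and Atf3 each held 1 partial site, and Junb also held TATAAA at 1 to 6. No searched motif was found in the windows of Jun and Gadd45a. Of 32841 RefSeq windows of the same length, 1.79% held the full CRE, 20.8% the partial site, 5.2% the AP-1 site, 0.612% the EGR site, 8.32% TATAAA and 1.63% the CArG box. A match describes these letters and does not show that a factor binds there. Bases outside the windows were not searched. The lack of a CArG box match for Fos thus holds for its window only and does not show that the gene lacks this site.

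The values are log2 intensities after the authors' normalization by RMA, so a difference of 1 is a doubling of intensity, and levels of different genes cannot be set against each other. Array medians lay between 8.85 and 8.90, and the number of arrays, 3 per group, limits the precision. The 6 measured markers of oviduct epithelium, among them Pax8 of secretory and Foxj1 of ciliated cells, were above the array median on all 9 arrays. Some arrays stood apart by markers of other tissue. The summed intensity of 10 ovarian markers, on the log2 scale, was 13.26 on immature 2, 13.23 on diestrus 2 and 12.08 on diestrus 3, against 11.33 to 11.60 on the other 6 arrays, and 1 of the 10, the steroid carrier gene Star, was called higher in diestrus than in immature. The like sums of immature 2 and diestrus 2 came in part from different ovarian markers. Inha was 12.42 on immature 2 and 10.94 on diestrus 2, and Inhba 9.77 and 8.48. Akr1c18 was 7.14 and 11.53, and Cyp11a1 8.34 and 10.27. Cyp17a1 was similar on both, at 10.06 and 10.27. The summed intensity of 7 smooth muscle markers was 15.30 on diestrus 3 and 14.54 to 14.86 on the other 8 arrays, with no marker called. Leukocyte markers, 8 in number, summed to 12.11 on diestrus 3 and to 11.54 to 11.77 elsewhere, and 6 endothelial markers to 12.35 on diestrus 3 and to 11.65 to 12.05 elsewhere. The 6 fat cell markers summed to 11.08 to 11.93 in immature, 10.95 to 11.13 in estrus and 10.86 to 11.15 in diestrus, and the 2 red cell markers to 9.45 to 9.71 over all arrays. For this reason results are also given without the 2 arrays of highest ovarian signal, immature 2 and diestrus 2. In a whole tissue, fewer cells of a type and less RNA per cell cannot be told apart.

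Btg2, Gadd45a and Rasd1 changed in diestrus, and the other 7 genes were not called in any of the 3 comparisons. Differences were tested with limma across all 28214 probe sets, and a gene was called where its Benjamini-Hochberg adjusted p was under 0.05. In diestrus against immature, 2 of the 10 genes were called, Btg2 higher and Gadd45a lower, where 1.00% of all probe sets were called, 0.294% of them higher and 0.705% lower. In diestrus against estrus, 2 of the 10 were called, Gadd45a and Rasd1, both lower, where 0.159% of all probe sets were called, 0.0673% higher and 0.0922% lower. In estrus against immature none of the 10 was called by limma, 1 of them, Rasd1, had an unadjusted p under 0.05, and 0.0851% of all probe sets were called, 0.0319% higher and 0.0532% lower. The median difference of the 10 genes was 0.01 in estrus minus immature, 0.01 in diestrus minus immature and 0.02 in diestrus minus estrus, beside medians of 0.01, 0.01 and -0.01 over all probe sets. Both comparisons with immature share the immature arrays, and both with diestrus share the diestrus arrays.

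**Figure D1:**
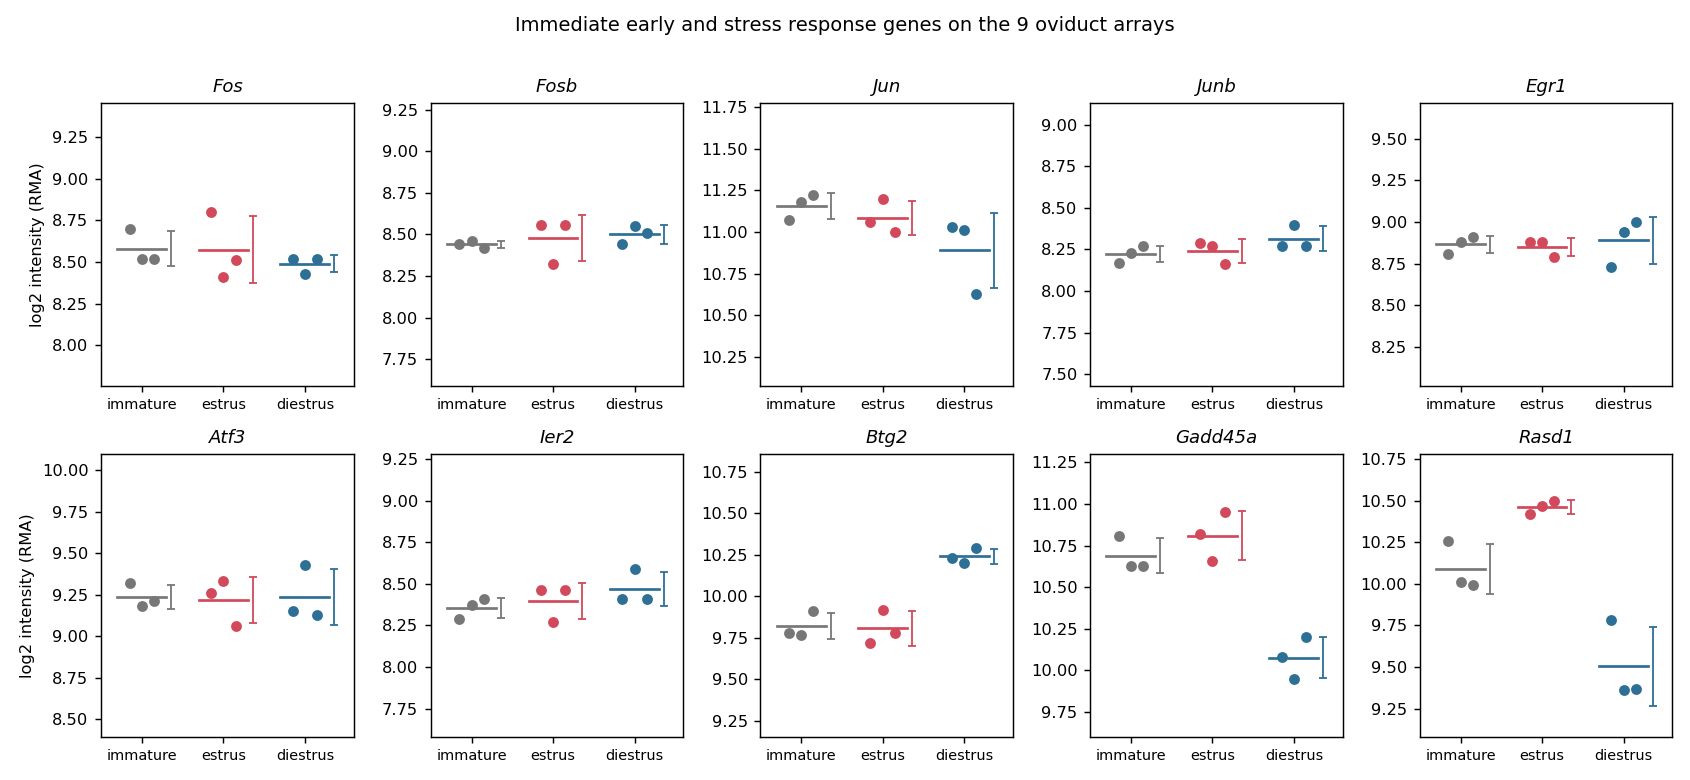
Log2 intensity (y axis) of each of the 10 genes on the immature, estrus and diestrus arrays (x axis). Points are arrays, horizontal lines are group means and bars at the side show ± 1 SD (n = 3). The diestrus points of Btg2 lie above, and those of Gadd45a and Rasd1 below, all points of the other 2 groups, while the groups overlap for Fos, Fosb, Junb, Egr1, Atf3 and Ier2.

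**Figure D2:**
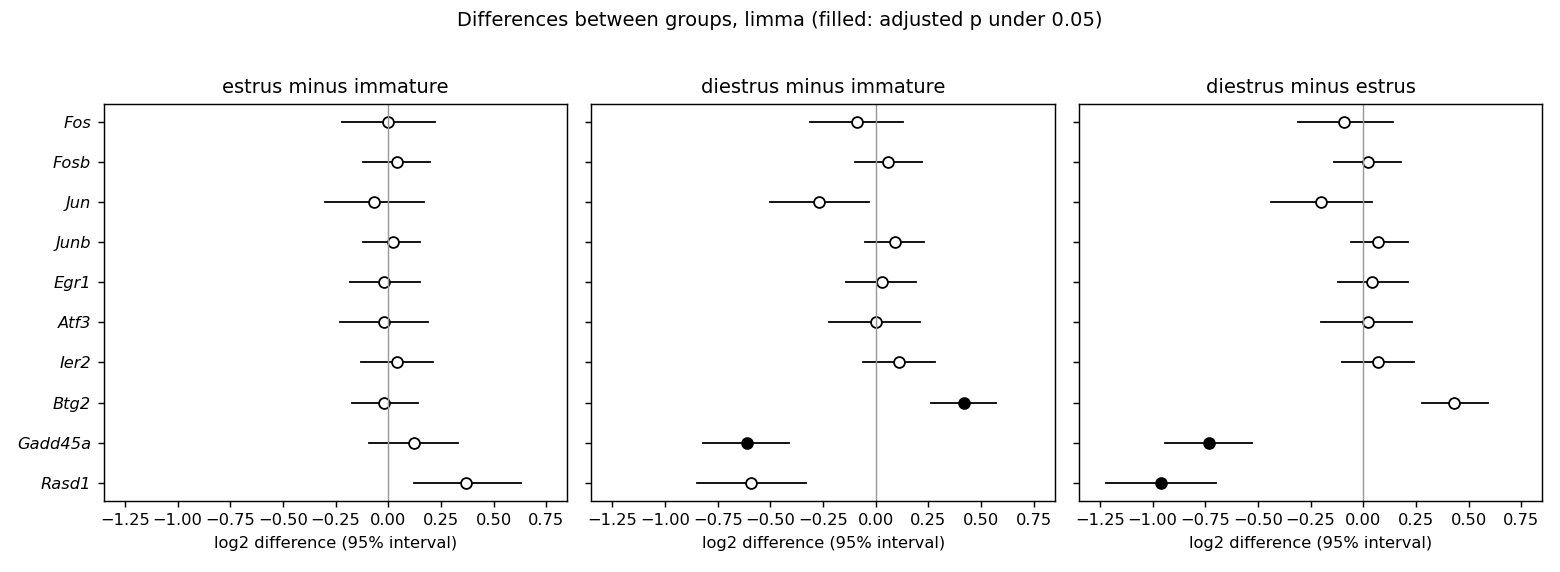
Difference of group means (x axis, log2 scale) for each gene (y axis) in the 3 comparisons, with 95% intervals from limma. Filled circles mark an adjusted p under 0.05: Btg2 and Gadd45a in diestrus minus immature, Gadd45a and Rasd1 in diestrus minus estrus.

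Among the genes of AP-1, Fos did not differ between groups beyond the spread of its arrays. Its log2 intensity was 8.70, 8.52 and 8.52 on the immature arrays, 8.80, 8.41 and 8.51 on the estrus arrays and 8.52, 8.43 and 8.52 on the diestrus arrays. The highest and the lowest value of Fos were both on estrus arrays, so the spread within estrus (SD 0.20, n = 3) exceeded every difference between group means. Fos was 0.00 ± 0.10 (SE) different between estrus and immature (limma adjusted p = 0.995), and -0.09 ± 0.10 in diestrus against immature (adjusted p = 0.763), with a 95% interval of -0.31 to 0.13. It was also -0.09 ± 0.10 in diestrus against estrus (adjusted p = 0.934). Fosb, the close relative of Fos, measured 8.44, 8.46 and 8.42 in immature, 8.56, 8.32 and 8.56 in estrus and 8.44, 8.55 and 8.51 in diestrus. Its estrus arrays spanned the values of both other groups. Its differences ranged from 0.02 to 0.06.

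Jun, the main partner of Fos, measured 11.07, 11.18 and 11.22 in immature, 11.06, 11.20 and 11.00 in estrus and 11.03, 11.01 and 10.63 in diestrus. All diestrus arrays of Jun lay under all immature arrays, but the value that stood apart was that of diestrus 3 alone. Jun was -0.27 ± 0.11 in diestrus minus immature, with an unadjusted p of 0.0324 and an adjusted p of 0.318 in limma, and it was not called. Without diestrus 3 the difference was -0.14, and in diestrus minus estrus it went from -0.20 with all arrays to -0.07. Diestrus 3 was also the array with the highest summed smooth muscle and leukocyte markers. Of the epithelial markers, Pax8 (11.76), Foxj1 (10.98) and Epcam (11.62) had their lowest values there. Krt8 (12.92), Krt18 (12.02) and Cdh1 (12.12) did not. The part of this in the Jun value was not tested. Junb, a Jun relative with weaker activating power, measured 8.17, 8.23 and 8.27 in immature, 8.29, 8.27 and 8.16 in estrus and 8.27, 8.40 and 8.27 in diestrus. These values of Junb overlapped between groups, and the difference of diestrus minus immature was 0.09 ± 0.06 (adjusted p = 0.591).

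Egr1, a zinc finger factor of the first wave, measured 8.81, 8.88 and 8.91 in immature, 8.88, 8.88 and 8.79 in estrus and 8.73, 8.94 and 9.00 in diestrus. The lowest and the highest value of Egr1 were both on diestrus arrays, and no difference between groups exceeded 0.04 in size. Ier2, a small nuclear protein gene of the same wave, measured 8.29, 8.37 and 8.41 in immature, 8.46, 8.27 and 8.46 in estrus and 8.41, 8.59 and 8.41 in diestrus. The mean of Ier2 was 0.11 ± 0.08 higher in diestrus than in immature (limma adjusted p = 0.594), with overlapping arrays. Atf3, a bZIP factor induced by many stresses, measured 9.32, 9.18 and 9.21 in immature, 9.26, 9.33 and 9.06 in estrus and 9.15, 9.43 and 9.13 in diestrus. Group means of Atf3 were 9.24, 9.22 and 9.24, and diestrus 2, one of the arrays with high ovarian markers, held its highest value.

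For these 7 genes the intervals, each taken singly, show which differences in intensity remain possible. They do not bound a difference in transcript level. Over Fos, Fosb, Jun, Junb, Egr1, Atf3 and Ier2, the 95% intervals of the difference ran from -0.30 to 0.22 in estrus minus immature, from -0.50 to 0.28 in diestrus minus immature and from -0.44 to 0.24 in diestrus minus estrus. These intervals allow intensity ratios of up to 1.23, 1.42 and 1.35. A missed threshold does not show that the levels were equal. Fos, Fosb, Junb and Ier2 were below the median of the array on all 9 arrays, and Egr1 on 5 of 9. No detection call was used here, so it is not shown that these probe sets were above background, and intensities near it understate a change.

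Btg2, an antiproliferative gene that is a target of p53, rose in diestrus. It measured 9.78, 9.77 and 9.91 in immature, 9.72, 9.92 and 9.78 in estrus and 10.23, 10.20 and 10.29 in diestrus. Every diestrus array was above every other array, while immature and estrus overlapped. Mean intensity in diestrus (10.24 ± 0.05, SD, n = 3) was 0.42 ± 0.07 (SE) above immature (9.82 ± 0.08), which is 1.33-fold higher with a 95% interval of 1.20 to 1.48, at a limma adjusted p of 0.0299. Against estrus (9.81 ± 0.10) the difference was 0.43 ± 0.07 and the adjusted p was 0.0549, which missed the threshold. Estrus and immature differed by -0.02 ± 0.07 (adjusted p = 0.968).

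The size of the Btg2 change depended little on any array, but its call did. Leaving out immature 1, immature 2, immature 3, estrus 3, diestrus 1 or diestrus 2 took the call against immature away, at adjusted p of 0.054 to 0.121, with differences of 0.39 to 0.46 over all 9 arrays left out in turn. Without both immature 2 and diestrus 2 the difference was 0.41 (adjusted p = 0.280).

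Gadd45a, a gene of the DNA damage and growth arrest response, fell in diestrus. It measured 10.81, 10.63 and 10.63 in immature, 10.82, 10.66 and 10.95 in estrus and 10.08, 9.95 and 10.20 in diestrus. The 3 diestrus arrays lay under all others, with a gap to the lowest of the immature and estrus arrays that was wider than the range within diestrus. Mean intensity in diestrus (10.08 ± 0.12, SD, n = 3) was -0.73 ± 0.09 (SE) relative to estrus (10.81 ± 0.15), a 1.66-fold lower intensity (limma adjusted p = 0.0229). Relative to immature (10.69 ± 0.11) it was -0.61 ± 0.09, a 1.53-fold lower intensity (adjusted p = 0.0222). Estrus and immature did not differ beyond their spread, at 0.12 ± 0.09 (adjusted p = 0.856).

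Calls for Gadd45a also needed most arrays. The call against estrus was lost without immature 2, immature 3, estrus 1, estrus 3, diestrus 1 or diestrus 2 (adjusted p 0.053 to 0.129), and that against immature without any 1 of the 3 immature arrays, diestrus 1 or diestrus 2 (adjusted p 0.0742 to 0.0924). The differences themselves stayed between -0.81 and -0.66 and between -0.68 and -0.55 over all 9 arrays left out in turn. Without both immature 2 and diestrus 2 they were -0.67 (adjusted p = 0.282) and -0.58 (adjusted p = 0.236).

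Rasd1 had the widest range of the 10 genes over the 9 arrays, 1.14, and fell from estrus to diestrus. It measured 10.26, 10.01 and 9.99 in immature, 10.42, 10.47 and 10.50 in estrus and 9.78, 9.36 and 9.37 in diestrus. The groups of Rasd1 formed 3 separate bands with estrus on top, immature between and diestrus at the bottom. Mean intensity in diestrus (9.50 ± 0.24, SD, n = 3) was -0.96 ± 0.12 (SE) relative to estrus (10.46 ± 0.04), a 1.95-fold lower intensity with a limma adjusted p of 0.0229. Relative to immature (10.09 ± 0.15) it was -0.59 ± 0.12 with an adjusted p of 0.0520, and it was not called. Estrus minus immature was 0.37 ± 0.12, with an unadjusted p of 0.00921 and an adjusted p of 0.514, and it was not called. Over the whole array, 1839 probe sets passed 0.05 before adjustment in that comparison.

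The Rasd1 call between diestrus and estrus was lost without immature 2, immature 3, estrus 1, estrus 2, estrus 3 or diestrus 2, at adjusted p of 0.053 to 0.119. The difference ranged from -1.10 to -0.89 over all 9 arrays left out in turn. Without both immature 2 and diestrus 2 it was -0.89 (adjusted p = 0.247). On diestrus 1, 2 and 3, where the ovarian markers summed to 11.36, 13.23 and 12.08, Rasd1 was at 9.78, 9.36 and 9.37, Gadd45a at 10.08, 9.95 and 10.20 and Btg2 at 10.23, 10.20 and 10.29. Among the diestrus arrays, Rasd1 was thus highest on the one with the lowest ovarian sum. Gadd45a was lowest on the one with the highest sum, but it was highest on diestrus 3. On immature 1, 2 and 3 the ovarian markers summed to 11.52, 13.26 and 11.36. There Rasd1 was at 10.26, 10.01 and 9.99, Gadd45a at 10.81, 10.63 and 10.63 and Btg2 at 9.78, 9.77 and 9.91. The part of ovarian tissue in these values was not tested. The replicate spread of Rasd1 about its group means, a residual SD of 0.165, was larger than that of 87.4% of all probe sets, and that of Btg2, 0.0800, larger than that of 35.0%.

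Separation of groups without overlap was common on these arrays. Rasd1 was the 1 of 10 genes whose estrus and immature arrays did not overlap, where 9.80% of all probe sets were so. In diestrus against immature 4 of 10 did not overlap (Jun, Btg2, Gadd45a and Rasd1), where 18.4% of all probe sets did not. In diestrus against estrus 3 of 10 did not (Btg2, Gadd45a and Rasd1), beside 11.8% of all.

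**Figure D3:**
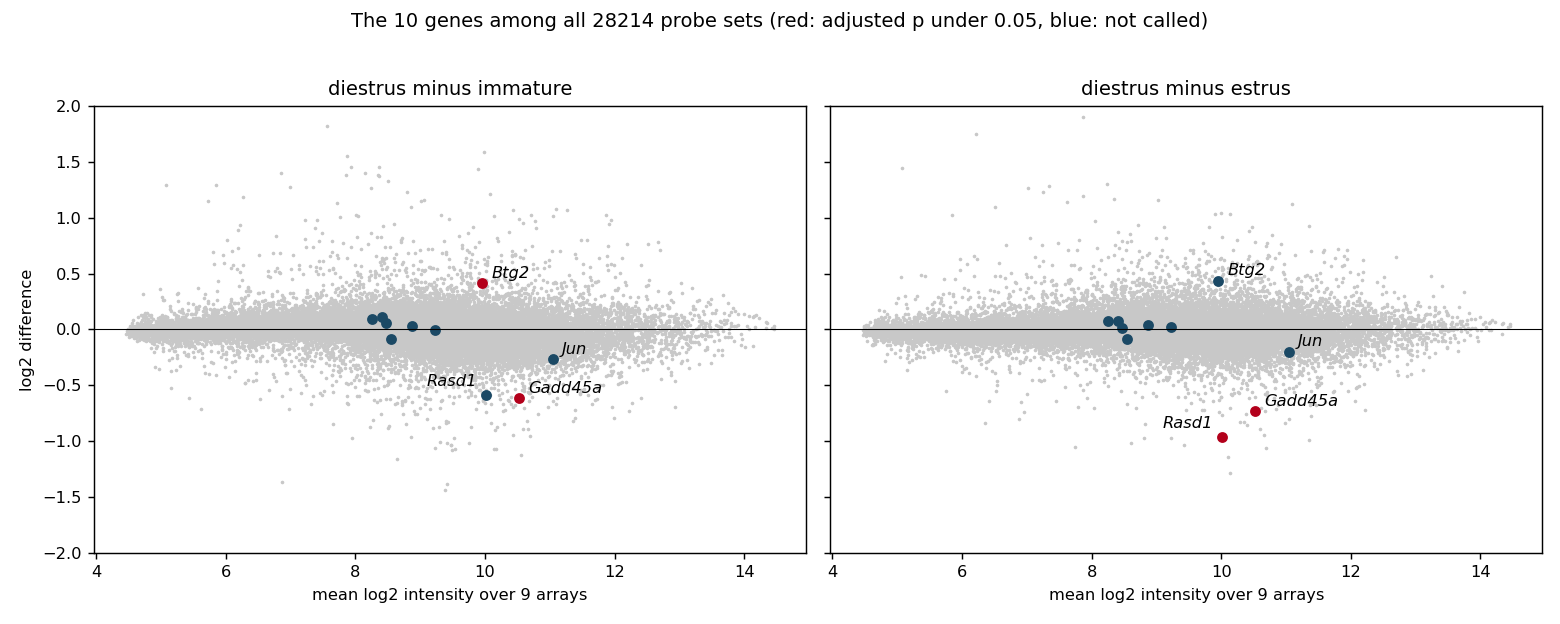
Log2 difference (y axis) against mean log2 intensity over the 9 arrays (x axis) for all 28214 probe sets (grey), with the 10 genes as large points, red where called and blue where not. Btg2, Gadd45a and Rasd1 lie at the edges of the grey cloud, the unlabelled genes in its middle, and 5 probe sets in diestrus minus immature and 1 in diestrus minus estrus lie beyond the axis limit of 2.

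To place the 10 genes in their pathways, 142 further genes on 7 lists were read, of which 132 were measured. None of the 132 was called in estrus against immature, where 0.0851% of all probe sets were. In diestrus against immature 3 of the 132 were called (beside 1.00% of all probe sets), and in diestrus against estrus 2 (beside 0.159%). At an unadjusted p under 0.05 in limma there were 10 of them in estrus against immature (7.58%, beside 6.52% of all probe sets), 21 in diestrus against immature (15.9%, beside 13.4%) and 19 in diestrus against estrus (14.4%, beside 9.33%). The called genes were Ptgs2, Ccn2 and Nfkbia. The medians of the lists below are those of diestrus minus immature, where the median over all probe sets was 0.01.

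Of the 18 measured AP-1 partners and other bZIP genes, none was called in any comparison (limma, with 4 at an unadjusted p under 0.05 in diestrus minus immature), and their median in diestrus minus immature was -0.01. Atf2, a partner of Jun that binds the CRE, was at 11.28 ± 0.00 in diestrus and 11.29 ± 0.02 in immature (SD, n = 3). Of 15 measured genes of serum response factor and its kinase input, none was called (2 at an unadjusted p under 0.05), with a median of -0.06. Mrtfb, an actin-regulated coactivator of serum response factor, differed by 0.15 ± 0.07 (adjusted p = 0.355).

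Among 29 measured other immediate early genes, 1 rose and 1 fell in diestrus against both other groups, and the median was 0.01. Ptgs2, the inducible enzyme of prostaglandin synthesis, measured 10.55, 10.05 and 10.23 in immature, 10.35, 10.79 and 10.61 in estrus and 9.60, 9.53 and 9.19 in diestrus. All its diestrus arrays were under all others, while the immature and estrus arrays overlapped. Ptgs2 was -1.14 ± 0.16 in diestrus minus estrus, a 2.21-fold lower intensity (limma adjusted p = 0.0281), and -0.84 ± 0.16 in diestrus minus immature (adjusted p = 0.0463). Leaving out any 1 of the 9 arrays ended the second call (adjusted p 0.0532 to 0.134), with differences of -0.95 to -0.70. Leaving out immature 2, immature 3, any estrus array, diestrus 1 or diestrus 2 ended the first (adjusted p 0.0552 to 0.129), with differences of -1.26 to -1.02 over all 9. Ptgs2 was -1.19 against estrus (adjusted p = 0.247) and -1.0 against immature (adjusted p = 0.221) without both immature 2 and diestrus 2.

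Ccn2, a matricellular gene induced by serum, TGF-beta and stretch, went the other way. It measured 10.25, 10.11 and 10.19 in immature, 10.16, 10.29 and 10.19 in estrus and 10.81, 10.87 and 10.84 in diestrus, so that diestrus formed a tight band above the rest. Ccn2 rose by 0.66 ± 0.06 against immature, a 1.58-fold higher intensity (limma adjusted p = 0.00272), and by 0.63 ± 0.06 against estrus (adjusted p = 0.0135). The call against immature held with each of the 9 arrays left out in turn (adjusted p at most 0.0186), with differences of 0.62 to 0.69. That against estrus was lost without estrus 1, estrus 3 or diestrus 2 (adjusted p 0.0763 to 0.0850), with differences of 0.60 to 0.67 over the 9 arrays left out in turn. With immature 2 and diestrus 2 both left out, Ccn2 differed by 0.61 from immature (adjusted p = 0.0855) and by 0.61 from estrus (adjusted p = 0.217). Dnajb1, a heat shock cochaperone of the same list, measured 10.79, 10.27 and 10.44 in immature, 10.57, 11.25 and 10.27 in estrus and 10.05, 9.84 and 9.72 in diestrus. Its diestrus arrays were the lowest, but the spread within estrus was wide, and the differences of -0.63 ± 0.22 against immature (adjusted p = 0.256) and -0.83 ± 0.22 against estrus (adjusted p = 0.224) were not called.

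Of 22 measured feedback inhibitors of the response, 1 fell in diestrus against immature, and the median was -0.02. Nfkbia, the inhibitor of NF-kappa-B that is itself a target of that factor, measured 11.38, 11.46 and 11.49 in immature, 11.43, 11.37 and 11.46 in estrus and 11.14, 11.11 and 11.19 in diestrus. Its diestrus arrays were all under the other 6, by a small and even step. The difference was -0.29 ± 0.05 against immature (limma adjusted p = 0.0442), and -0.27 ± 0.05 against estrus (adjusted p = 0.105, not called). The call was lost without any 1 of the immature arrays, estrus 1, estrus 3, diestrus 1 or diestrus 2 (adjusted p 0.0626 to 0.169), with differences of -0.33 to -0.27 over all 9 arrays left out in turn. Without both immature 2 and diestrus 2 the difference was -0.27 (adjusted p = 0.372). Zfp36l2, a protein that speeds decay of AU-rich messages, differed by 0.01 between diestrus and immature.

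Of 17 measured growth arrest and p53 target genes, the list nearest to Btg2 and Gadd45a, none was called in diestrus against immature (1 at an unadjusted p under 0.05 in limma), and the median was 0.00. Ccng1, a cyclin induced by p53, differed by 0.16 ± 0.08 (adjusted p = 0.449). Gadd45b and Gadd45g, of the same family as Gadd45a, had higher means in diestrus but were not called. Gadd45b was at 0.22 in diestrus minus immature and 0.42 in diestrus minus estrus, and Gadd45g at 0.22 and 0.25. Of 16 measured genes of the integrated stress response, the program that Atf3 belongs to, none was called, 3 had an unadjusted p under 0.05 and the lowest adjusted p was 0.0577. Their median was -0.02, and Psat1, an enzyme of serine synthesis, was at -0.21 ± 0.11 (adjusted p = 0.457). Of 15 measured glucocorticoid response genes, the list nearest to Rasd1, none was called (5 at an unadjusted p under 0.05). Their median in diestrus minus immature was 0.15, with 13 of 15 means higher in diestrus, and in diestrus minus estrus, where Rasd1 was called, it was 0.02, with 10 of 15 higher. Mt2, a metallothionein, stood at 13.54 ± 0.22 in diestrus and 13.54 ± 0.13 in immature.

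**Figure D4:**
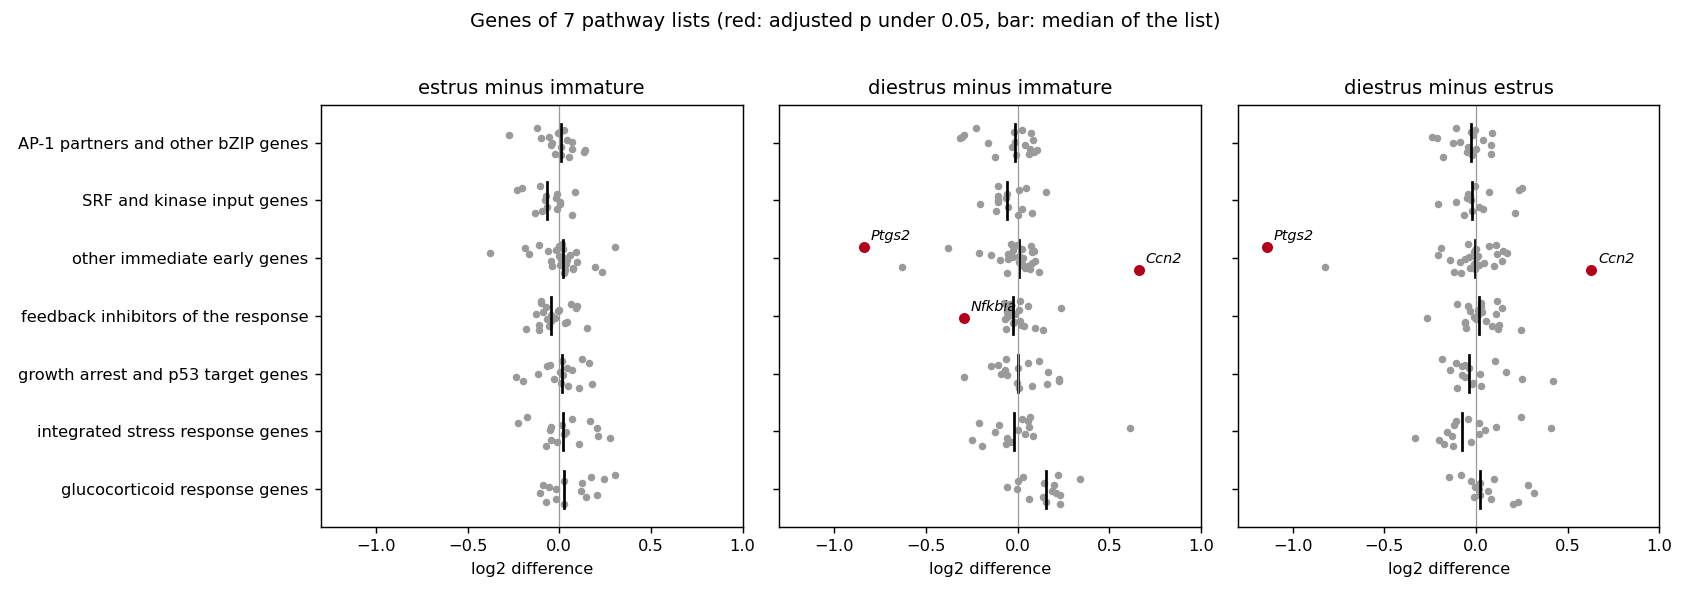
Log2 difference (x axis) of every measured gene of the 7 lists (y axis) in the 3 comparisons. Grey points were not called, red points were called and bars mark list medians. Most genes of the lists lie near 0, and Ptgs2 and Ccn2 lie far from it in both comparisons with diestrus. Nfkbia, called at -0.29 in diestrus minus immature, lies nearer 0 than some uncalled genes, such as Dnajb1 (-0.63) and Nupr1 (0.61).

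**Figure D5:**
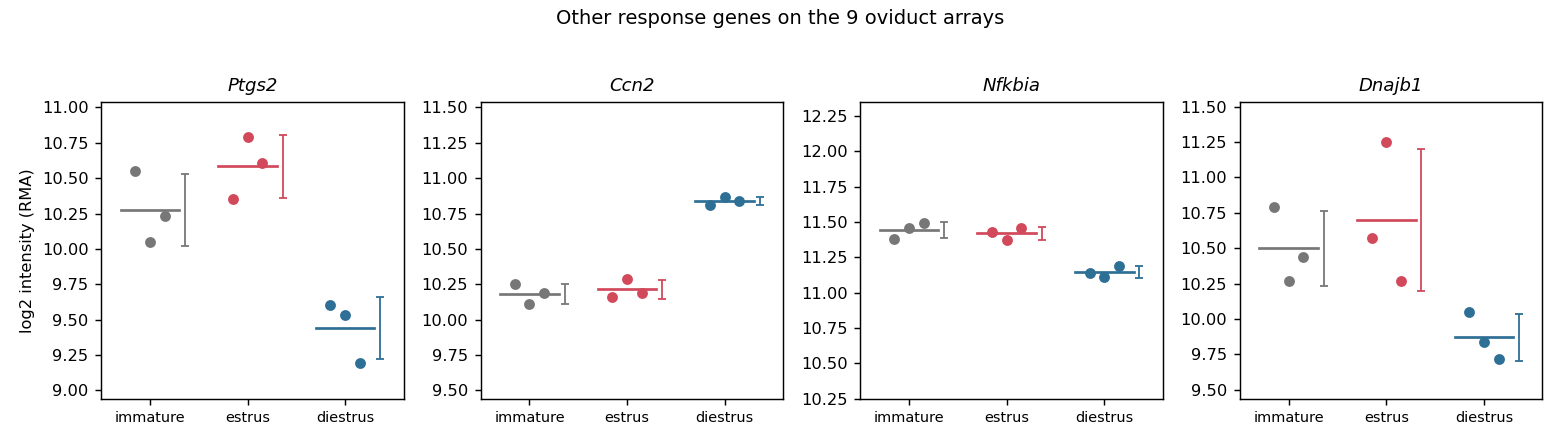
Log2 intensity (y axis) of Ptgs2, Ccn2, Nfkbia and Dnajb1 on the immature, estrus and diestrus arrays (x axis), with group means as lines and ± 1 SD as bars (n = 3). Diestrus is below both other groups for Ptgs2, Nfkbia and Dnajb1 and above them for Ccn2.

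The genes closest in pattern to Fos were sought among 10431 genes by the mean absolute difference of centred log2 values over the 9 arrays. This is a description with no test. Only genes with a mean above the median of all probe sets were searched, and predicted gene models were left out. Fosb, Junb, Egr1 and Ier2 had means below that median, so they could not appear among the neighbours. The nearest 8 were Socs1, Emilin3, Gdf11, Tbc1d4, Col5a3, Zfp180, C2cd4b and Nlrp6, at distances of 0.037 to 0.048, where Fos itself deviated from its own mean by 0.090 on average. None of these 8 was called by limma in any comparison with diestrus (lowest adjusted p 0.414), and like Fos they moved little over the 9 arrays. They were chosen for values like those of Fos, so this is no separate result.

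The same search for the 3 changed genes was added after their values had been seen, and its neighbours are a description only. Rasd1, with a mean deviation of 0.351, was nearest to Stat5a (0.101), a factor activated by prolactin and other cytokines, followed by Syn2, Ppp2r2c, Tmtc4, Npr2, Wfs1, Mboat2 and Cyp26a1 (0.148). Gadd45a, with a mean deviation of 0.300, was nearest to Tmtc4 (0.050) and to Npr2, the receptor of C-type natriuretic peptide, followed by Tex2, Rassf5, G6pd2, Lcorl, Gas7 and Stat5a (0.098). Npr2, Stat5a and Tmtc4 were thus among the 8 nearest of both genes, and Rasd1 and Gadd45a were 0.153 from each other. These 3 shared neighbours each differed by -0.71 in diestrus minus estrus. They were chosen by these same values, so their fall in diestrus follows from the choice and is no separate result. Btg2, with a mean deviation of 0.189, was nearest to P2rx7 (0.053), an ATP-gated channel, followed by Wdr45, Rhoq, Tshz2, P2rx4, Npc2, Mmp11 and Cpt1a (0.065). Ptgs2 lay 0.160 from Rasd1, and Ccn2 lay 0.099 from Btg2. Ranked by nearness among 10915 genes, predicted gene models included, Ptgs2 was at rank 15 for Rasd1 and Ccn2 at rank 92 for Btg2. Ptgs2 was at rank 193 for Gadd45a, and Nfkbia at rank 752 for Rasd1 and 216 for Gadd45a. These genes were ranked because they were called in comparisons with diestrus, so a near rank is no separate result. In the same ranking Gadd45a was at rank 10 for Rasd1, and Rasd1 at rank 56 for Gadd45a.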

How the data were processed

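RNA extracted with RNAzol from pooled oviducts was biotin labelled and hybridised to Affymetrix arrays, per the labels' protocols. The authors deposited 1 log2 value per probe set and array, made with Affymetrix Expression Console and RMA, per the submitters' processing notes. RMA subtracts background, brings all arrays to 1 distribution and merges the probes of a set, which can shrink differences of dim probe sets. The base of the logarithm was read from the range of the values, and the sources used here name no version of these tools. All 28214 probe sets were kept. Symbols came from the platform annotation (21640 probe sets with 1 symbol, 1321 with several, 5253 with none).

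A single limma model held all 3 groups (limma 3.58.1, R 4.3.3, two-sided tests from eBayes after lmFit, with 6 residual and 3.60 prior degrees of freedom), with p-values adjusted over all probe sets after Benjamini and Hochberg, and the fit was tested on simulated data. The simulated differences were larger than those of the called members, so this check does not speak for calls of their size. Further steps ran in Python 3.11.15 with pandas 2.3.3, and plots were drawn with matplotlib 3.10.9. Members and gene lists were chosen with earlier results of these data known. Named were all 10 members, on each list up to 4 called genes by size and up to 2 uncalled genes by level, of which the text gives the first, and the 8 genes most like Fos. Gadd45b and Gadd45g were named outside this rule, as relatives of Gadd45a. Of the marker lists a gene is named where a value turns on it. The partial CRE search and the neighbours of Btg2, Gadd45a and Rasd1 were added later. Sequences and their build are RefSeq's. Replicate numbers did not pair the arrays. In all, 18 alternatives were tried, 9 of them leaving out 1 array.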

Additional observations from a re-analysis of the deposited data

Results flagged for a closer look

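Among the 10 genes and those named from the pathway lists, 4 changed differently against immature in the 2 mature stages, tested as diestrus minus estrus in limma across all probe sets, where 45 probe sets were called in all. Gadd45a was -0.73 in diestrus minus estrus, with all 3 diestrus arrays lower. Rasd1 was -0.96, with all 3 diestrus arrays lower and the 3 estrus arrays above the immature ones. Ptgs2 was -1.14, with all 3 diestrus arrays lower. Ccn2 was 0.63, with all 3 diestrus arrays higher. The adjusted p-values were 0.0229, 0.0229, 0.0281 and 0.0135.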

How the results depend on the processing

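Directions of Gadd45a, Rasd1, Ptgs2 and Ccn2 in both comparisons with diestrus, of Nfkbia and Btg2 there, and of Jun in all 3 comparisons held in all 18 alternatives, while calls did not. Adjusted p of the called members ranged from 0.00562 to 0.280 for Btg2 and from 0.0042 to 0.236 for Gadd45a in diestrus minus immature, and in diestrus minus estrus from 0.000309 to 0.282 for Gadd45a and from 0.00061 to 0.247 for Rasd1. In 5 of the 18 alternatives Rasd1 was also called in diestrus minus immature, and in 5 Btg2 in diestrus minus estrus. Where the cause is not given below, it was not tested.

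The same replicate numbers did not go with a shared deviation (correlations of same-numbered arrays from -0.29 to 0.17), so the block on replicate number is an alternative only. With the replicate block, probe sets called went from 24 to 4 in estrus minus immature, from 282 to 121 in diestrus minus immature and from 45 to 13 in diestrus minus estrus. Members called in diestrus minus immature went from 2 to 1 under the block, with Btg2 at an adjusted p of 0.0658, and called genes of the pathway lists went from 3 to 1 and from 2 to 1 in the comparisons with immature and with estrus.

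Array weights gave 1023, 1288 and 3331 called probe sets, 4 members in diestrus minus estrus (Junb and Btg2 added), 3, 7 and 19 pathway genes, and medians of members of -0.04 in estrus minus immature and 0.04 in diestrus minus immature. Cyclic loess gave 5 called probe sets in estrus minus immature and 1 member, Btg2, in diestrus minus immature. A filter on dim probe sets gave 69 in diestrus minus estrus. With only the 6 arrays of the 2 groups, which leaves fewer degrees of freedom, 85 probe sets, 0 members (3 at an unadjusted p under 0.05 in limma) and 1 pathway gene were called in diestrus minus immature, and 0 probe sets (2256 at an unadjusted p under 0.05), 0 members (3) and 0 pathway genes (17) in diestrus minus estrus.

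Without both immature 2 and diestrus 2, a choice made after seeing the data, limma called 2, 10 and 0 probe sets (1702 at an unadjusted p under 0.05 in the last), 0 members in either comparison with diestrus (3 at an unadjusted p under 0.05 in each), and 0 pathway genes in either (10 and 16). The medians of members were then -0.04 in diestrus minus immature and -0.03 in diestrus minus estrus.

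Leaving out each array in turn gave 1 to 95, 41 to 533 and 1 to 105 called probe sets, 0 to 0, 0 to 2 and 0 to 2 members, 0 to 0, 1 to 3 and 0 to 2 pathway genes, and medians of members of 0.00 to 0.04, -0.03 to 0.07 and -0.03 to 0.05. The highest counts of probe sets, 95, 533 and 105, came without diestrus 3. No member was called in diestrus minus immature without any 1 of the immature arrays or diestrus 2, nor in diestrus minus estrus without immature 2, immature 3, estrus 1, estrus 3 or diestrus 2.

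Small uncalled differences changed sign. Under cyclic loess, estrus minus immature was -0.02 for Junb, 0.01 for Btg2 and 0.01 for Nfkbia, and diestrus minus immature was 0.00 for Atf3, 0.04 for Atf2 and 0.00 for Mt2. Under array weights, estrus minus immature was -0.04 for Junb and 0.02 for Nfkbia, diestrus minus immature 0.06 for Atf3 and 0.05 for Mt2, and diestrus minus estrus -0.04 for Fosb. Without both immature 2 and diestrus 2, Ccn2 was 0.00 in estrus minus immature, Zfp36l2 -0.04 in diestrus minus immature, and Fosb -0.01 and Atf3 -0.08 in diestrus minus estrus. With 1 array left out, estrus minus immature ran from -0.12 to 0.08 for Fos, -0.04 to 0.01 for Egr1, -0.08 to 0.06 for Atf3, -0.07 to 0.03 for Btg2, -0.01 to 0.05 for Junb and -0.01 to 0.06 for Ccn2. Diestrus minus immature ran from -0.03 to 0.10 for Egr1, -0.10 to 0.05 for Atf3, -0.03 to 0.07 for Zfp36l2 and -0.10 to 0.12 for Mt2. Diestrus minus estrus ran from -0.17 to 0.03 for Fos, -0.06 to 0.06 for Fosb, -0.01 to 0.12 for Egr1 and -0.08 to 0.08 for Atf3.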

Other observations

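The highest and lowest values of the 10 genes lay on estrus and diestrus arrays, except for the highest value of Jun, on immature 3. Estrus 2 held the lowest value of 3 genes (Fos, Fosb and Ier2), and diestrus 2 the highest of 3 (Junb, Atf3 and Ier2). Of the 10 genes, 5 had a value that recurred on another array to the 3 decimals deposited, as 48.0% of all probe sets did.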
